A study of Mus musculus with 56 samples.

Results

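G0s2 was represented by 2 of the 9984 spots of MUSV29K, a nylon membrane carrying mouse cDNA clones that is hybridized with radioactively labelled cDNA. Both spots carry the symbol G0s2 in the spot list, and they are called here the brighter spot (grid position J:01-G:02) and the dimmer spot (P:01-E:12). Whether they hold the same clone is not given in the sources used here. The gene was chosen by its measured level without control subtraction, which differed between the stages of injury, so its levels by time point and stage are given as a description, with no test.

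The lungs came from 35 female C57Bl/6J mice, 7 weeks old, each injected through the tail vein under xylazine and ketamine anesthesia. Oleic acid (OA), a fatty acid that injures the lung when given in the blood, was injected in 27 mice, and physiological serum in 8 control mice. Lungs were taken 1, 1.5, 3, 4, 18 and 24 hours after injection from 4, 6, 7, 4, 3 and 3 OA mice, in that order, grouped as early (1 and 1.5 hours, 10 mice), intermediate (3 and 4 hours, 11 mice) and late (18 and 24 hours, 6 mice). The serum mice with microarrays numbered 2, 1, 2, 2 and 1 for 1, 1.5, 3, 18 and 24 hours, and the 4-hour time point had no serum microarray. The methods give 1 or 2 serum mice to each time point, 4 hours included. RNA was taken from a whole lung, in which fewer cells of a type and less RNA per cell cannot be told apart.

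G0s2 (G0/G1 switch gene 2) encodes a small protein that binds and inhibits adipose triglyceride lipase, the product of Pnpla2, which takes the first fatty acid off a stored triglyceride. The lipase is activated by Abhd5, and the lipid droplet surface on which it works is coated by perilipins. G0s2 is a known target of the PPAR family of fatty acid-sensing receptors, and it owes its name to a screen of lymphocytes leaving the resting state.

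The 51 OA and 9 serum microarrays differed in brightness before normalization, with a median intensity on the log2 scale between 6.75 and 9.36 on the OA microarrays and between 5.73 and 8.39 on the serum microarrays. The dimmest of all was a serum microarray at 3 hours. The number after the letter L in the name of an OA mouse is explained neither by the labels nor by the methods and was taken as a possible lot. All 6 late mice were of lot 1, the early mice were of lots 2 and 3, and the intermediate mice were of lots 1, 2 and 3. Of the alveolar type II markers, all 4 clones measured stood above the 95th percentile of the empty spots, with Sftpd, a surfactant protein, at a mean log2 level of 13.52.

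In the deposited table of log2 values, the brighter G0s2 spot was high in the OA mice at 1 and 1.5 hours, lower at 3 and 4 hours, and high again at 18 and 24 hours. The 4 mice at 1 hour had levels of 9.13, 9.415, 9.65 and 10.16, with a mean of 9.59 ± 0.44 (SD, n = 4). The 6 mice at 1.5 hours lay between 9.135 and 10.0 with a median of 9.46 and a mean of 9.50 ± 0.29 (SD, n = 6). No mouse of the intermediate stage reached these levels.

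The 7 mice at 3 hours lay between 8.095 and 8.99 with a median of 8.43 and a mean of 8.49 ± 0.33 (SD, n = 7). The 4 mice at 4 hours had levels of 8.43, 8.51, 8.59 and 8.79, with a mean of 8.58 ± 0.15 (SD, n = 4). At the late stage the level was back within the range of the early mice for part of the animals. The 3 mice at 18 hours had levels of 9.01, 9.35 and 9.38, with a mean of 9.25 ± 0.21 (SD, n = 3), and the 3 mice at 24 hours had levels of 9.075, 9.15 and 9.325, with a mean of 9.18 ± 0.13 (SD, n = 3).

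Ordered by mean, the time points ran from 1 hour through 1.5, 18, 24 and 4 hours to 3 hours. In this order the neighbours 1 and 1.5 hours, 1.5 and 18 hours, 18 and 24 hours, and 4 and 3 hours overlapped between mice, and the break without overlap lay between 24 and 4 hours. By stage, the mean was 9.54 ± 0.34 early (SD, n = 10), 8.52 ± 0.27 intermediate (SD, n = 11) and 9.21 ± 0.16 late (SD, n = 6). The early mean exceeded the intermediate mean by 1.01 and the late mean exceeded it by 0.69 on the log2 scale, and in neither case did the mice overlap. No fold is given, since the intermediate level was above the 95th percentile of the empty spots on 1 of 21 microarrays. Early and late mice did overlap, with 4 of the 6 late mice above the lowest early mouse and a difference in means of 0.32 on the log2 scale.

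**Figure D1:**
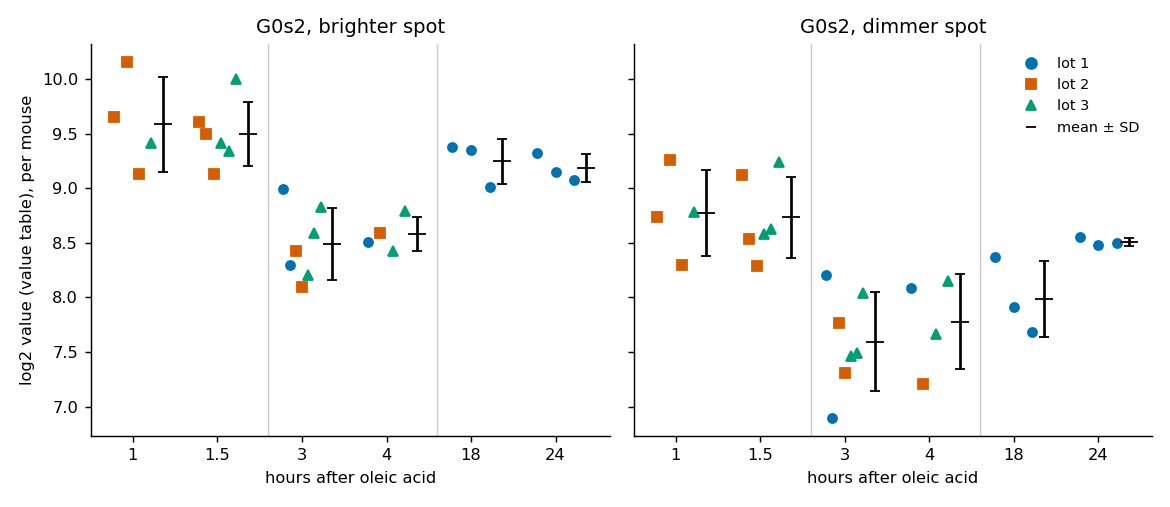
Log2 value of both G0s2 spots in each of the 27 OA mice by hours after injection (value table, mean of the microarrays of a mouse), with the mean ± SD of each time point in black and the possible lot by symbol. Vertical lines separate the early, intermediate and late stages, and at the brighter spot the intermediate mice (8.095 to 8.99) lie below all early and late mice.

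The dimmer spot had the same order of stages by mean. The 4 mice at 1 hour had log2 levels of 8.295, 8.74, 8.785 and 9.26 (mean 8.77 ± 0.39, SD, n = 4), and the 6 mice at 1.5 hours lay between 8.285 and 9.24 with a median of 8.605 (mean 8.73 ± 0.37, SD, n = 6). The 7 mice at 3 hours lay between 6.895 and 8.21 with a median of 7.49 (mean 7.60 ± 0.45, SD, n = 7), and the 4 mice at 4 hours had 7.21, 7.665, 8.085 and 8.155 (mean 7.78 ± 0.44, SD, n = 4). The early and intermediate mice thus did not overlap here either, and the means differed by 1.09 on the log2 scale, with the intermediate level above the 95th percentile of the empty spots on 0 of 21 microarrays.

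The late mice were less uniform at the dimmer spot than at the brighter spot. At 18 hours they had log2 levels of 7.68, 7.91 and 8.37 (mean 7.99 ± 0.35, SD, n = 3), within reach of the intermediate mice, and at 24 hours 8.485, 8.495 and 8.55 (mean 8.51 ± 0.04, SD, n = 3), within the range of the early mice. The late mean exceeded the intermediate mean by 0.59, but 5 of the 11 intermediate mice lay above the lowest late mouse.

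Over all 7625 clones with a gene name, the lowest early mouse lay above the highest intermediate mouse for 3 clones (0.0393%), namely both G0s2 spots and Arhgap29, a GTPase-activating protein named here after its values were seen. The lowest late mouse lay above the highest intermediate mouse for 21 clones (0.275%), the brighter G0s2 spot among them and the dimmer one not. Both held for 2 clones (0.0262%), the brighter G0s2 spot and Arhgap29. These counts describe the contrast by which the gene was chosen.

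Differences between time points of the same stage were not used to choose the gene and were tested with limma over all clones. At the brighter spot the level at 1.5 hours minus that at 1 hour was -0.09 (SE 0.18, 95% interval -0.47 to 0.29) on the log2 scale, the level at 4 hours minus that at 3 hours was 0.09 (SE 0.18, -0.28 to 0.46), and the level at 24 hours minus that at 18 hours was -0.06 (SE 0.23, -0.54 to 0.42). None passed the test (limma, Benjamini-Hochberg adjusted p of 0.9998, 0.9985 and 0.988). At the dimmer spot the differences were -0.04, 0.18 and 0.52 (SE 0.24, 0.23 and 0.30), with limma adjusted p of 0.9998, 0.9985 and 0.744, and the interval of the last ran from -0.10 to 1.14. Of all clones, limma called 0, 0 and 2 in these comparisons (0%, 0% and 0.0262%), and 292, 263 and 553 had an unadjusted p under 0.05.

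Within each possible lot the order of the stages was kept, on the same levels by which the gene was chosen and with no test. In lot 2 the 6 early mice exceeded the 3 intermediate mice by 1.16 at the brighter spot and 1.28 at the dimmer spot on the log2 scale, and in lot 3 the 4 early mice exceeded the 5 intermediate mice by 0.98 and 1.05. In neither lot did the mice overlap at either spot, which was given by the lack of overlap over all early and intermediate mice. In lot 1 the 6 late mice exceeded the 3 intermediate mice by 0.62 at the brighter spot. The lack of overlap there was likewise given by that over all late and intermediate mice. At the dimmer spot the late mice exceeded the intermediate mice by 0.52, and 2 of the 3 intermediate mice lay above the lowest late mouse. Early and late mice shared no lot, so that their difference and the lot cannot be told apart.

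The spots followed each other across animals. Over the 27 OA mice their log2 levels had a Pearson correlation of 0.90 and a Spearman correlation of 0.90, and after subtraction of the mean of each time point a Pearson correlation of 0.79, on shared RNA and shared membranes. The highest mouse at both spots was P3L2 at 1 hour, with 10.16 and 9.26. On 23 OA mice hybridized to 2 microarrays, the size of the difference between the microarrays had a median of 0.18 at the brighter spot (0.02 to 0.60) and 0.35 at the dimmer spot (0.02 to 2.09), against a median of 0.22 over all clones. The brighter spot was therefore measured more evenly than the dimmer one.

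**Figure D2:**
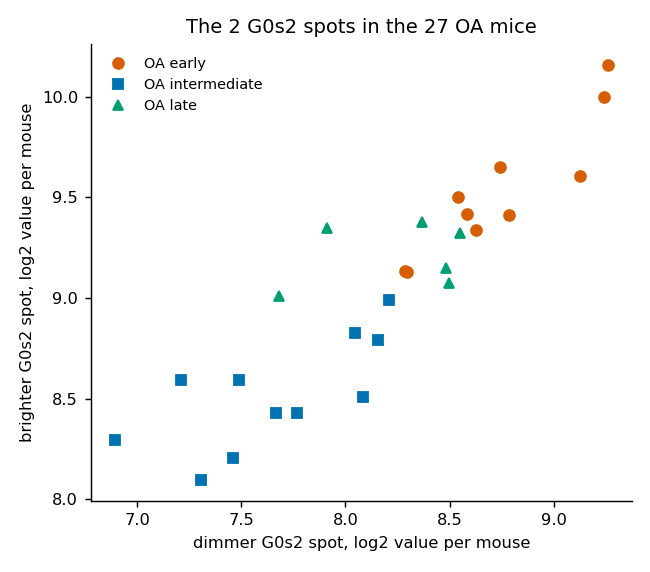
Log2 value of the brighter G0s2 spot (vertical axis) against the dimmer spot (horizontal axis), with 1 point for each of the 27 OA mice and the stage by symbol. High and low values go together (Pearson r = 0.90), with the early mice at the upper right and the intermediate mice at the lower left.

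Both spots gave weak signal on this platform. The brighter spot had a mean of 9.05 over the 27 OA mice, just under the 95th percentile of the means of the 512 empty spots (9.11) and far above their median (6.37), and it was brighter than 66.0% of the clones. The dimmer spot, with a mean of 8.19, was brighter than 39.4% of the clones. Set against the empty spots of the same microarray, the brighter spot passed their 95th percentile on 14 of 19 early, 1 of 21 intermediate and 7 of 11 late OA microarrays, and the dimmer spot on 5, 0 and 1 of them. On nearly all microarrays, the levels at 3 and 4 hours were thus ones that empty spots also reach.

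The stage differences of the empty spots are set beside those of G0s2 as a description. G0s2 was chosen by these differences and the spots below were not, so the comparison is no test. The empty spots had a median log2 value of 6.36 early, 6.38 intermediate and 6.40 late, and a 95th percentile of 9.07, 9.23 and 9.28. These values are over the 18 early, 21 intermediate and 11 late microarrays with a known mouse. The early minus intermediate difference of the 512 empty spots lay between -1.08 and 0.44 with a median of -0.01, and none of them reached the 1.01 of the brighter or the 1.09 of the dimmer spot. Late minus intermediate, they lay between -0.75 and 0.63, where 0 exceeded the brighter spot (0.69) and 2 the dimmer spot (0.59). The 8 spots around the brighter G0s2 spot differed by 0.02 to 0.35 between the early and intermediate stages and were at most 8.86 in mean level. Those around the dimmer spot differed by -0.09 to 0.19 and included a clone at 13.13, whose part in the signal of the dimmer spot was not tested.

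**Figure D3:**
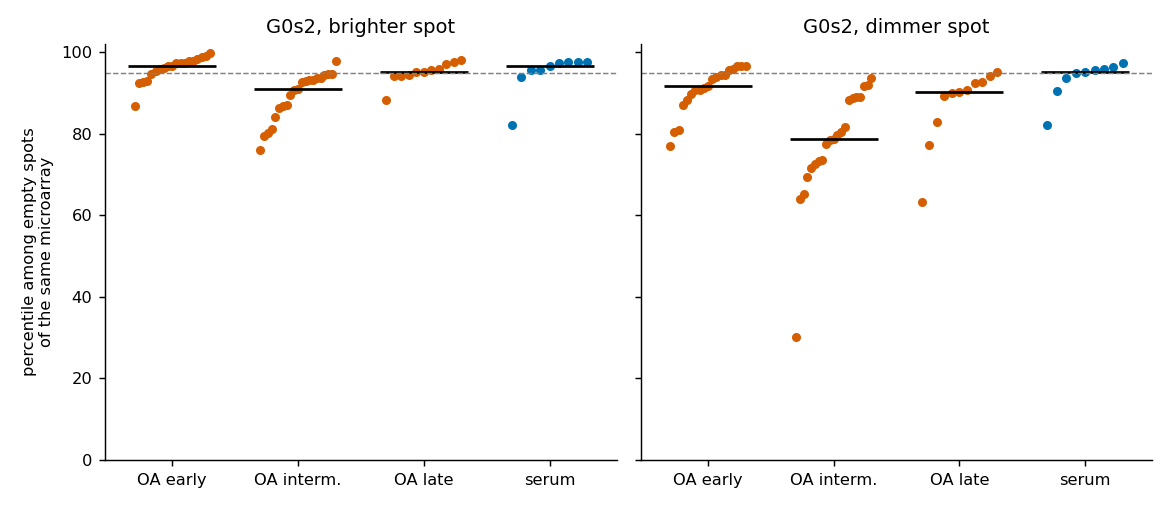
Place of each G0s2 spot among the 512 empty spots of the same microarray, as a percentile (vertical axis), for OA microarrays by stage (value table) and for the 9 serum microarrays (normalized image signal), with 1 point for each microarray, the median as a black line and the 95th percentile dashed. The median of the brighter spot is 96.7 early, 91.02 intermediate, 95.1 late and 96.5 in serum.

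OA and serum mice were compared on the image signal at constant spot diameter, quantile-normalized over the 60 microarrays, since the deposited table holds 1 serum column for each time point and no values of single serum mice. Averaged over the 5 shared time points, G0s2 was lower in OA than in serum at both spots. The OA mice are the same animals by whose levels the gene was chosen, and 27.3% of all clones were called lower and 34.3% higher in OA by this contrast.

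On this scale the serum mice had levels at the brighter spot of 9.72 and 9.92 (1 hour), 9.87 (1.5 hours), 8.63 and 9.63 (3 hours), 9.60 and 9.57 (18 hours), and 9.32 (24 hours). The level of 8.63 came from the dimmest microarray. OA mice averaged 9.48, 9.38, 8.40, 9.13 and 9.06 in the same order, and they overlapped with the serum mice at 1, 1.5 and 3 hours and lay below them at 18 and 24 hours.

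The mean difference at the brighter spot was -0.45 (SE 0.13, 95% interval -0.72 to -0.18) on the log2 scale, with a limma adjusted p of 0.00383. By time point it was -0.34 (SE 0.26), -0.48 (SE 0.32), -0.72 (SE 0.24), -0.46 (SE 0.27) and -0.26 (SE 0.35) from 1 to 24 hours. In the same order limma called 13.4%, 4.66%, 16.3%, 12.8% and 7.87% of all clones lower in OA and 16.6%, 9.46%, 23.7%, 16.4% and 14.5% higher. At the brighter spot the difference at 3 hours alone passed the test, with a limma adjusted p of 0.0178, at a time point whose low OA level is part of what chose the gene, against 0.343, 0.348, 0.226 and 0.647 at the other time points. Without the brighter of both serum mice at 3 hours, this difference was -0.23 with a limma adjusted p of 0.581.

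At the dimmer spot the difference was wider. The serum mice had log2 levels of 9.69 and 9.47 (1 hour), 9.22 (1.5 hours), 8.65 and 9.48 (3 hours), 9.46 and 9.46 (18 hours), and 9.27 (24 hours), and 7 of the 8 lay above the highest of the 27 OA mice (9.13). At no shared time point did OA and serum mice overlap, with 1 or 2 serum mice at each. The share of all clones that separate OA from serum mice in these ways was not counted, at either spot's time points or over all mice. The mean difference was -1.09 (SE 0.16, 95% interval -1.41 to -0.76), with a limma adjusted p of 1.09e-06. It was -0.91, -0.58, -1.56, -1.56 and -0.83 from 1 to 24 hours (SE 0.32, 0.39, 0.29, 0.33 and 0.42), and limma called it lower at 1, 3 and 18 hours (adjusted p of 0.03, 0.000123 and 0.000826). The low OA level at 3 hours is part of what chose the gene, and it enters the mean difference over the time points too. The call at 1 hour was lost without mouse P4L2 or without either serum mouse of that time (adjusted p between 0.0877 and 0.183). With the signal at calculated diameter the mean difference was -0.61 at the brighter and -0.56 at the dimmer spot, and limma called neither (adjusted p of 0.0607 and 0.226).

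**Figure D4:**
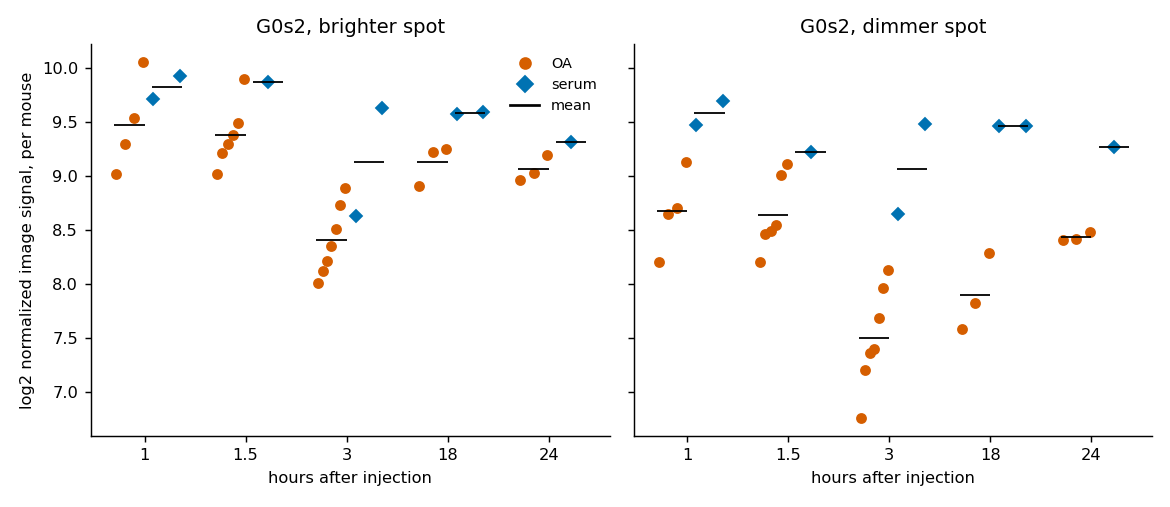
Log2 normalized image signal (constant diameter) of both G0s2 spots in each OA mouse (circles) and serum mouse (diamonds) at the 5 time points they share, with the mean of each group as a black line. At the dimmer spot the serum mice (8.65 to 9.69) lie above the OA mice of the same time point throughout, while at the brighter spot the groups overlap up to 3 hours.

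Empty spots were also higher in serum than in OA on this scale. Over the same 5 time points their OA minus serum difference had a median of -0.28 and quartiles of -0.67 and 0.05, against a median of 0.05 over the clones, and 184 of the 512 empty spots (35.9%) lay below the -0.45 of the brighter G0s2 spot and 48 (9.38%) below the -1.09 of the dimmer one. The part of this shift in the G0s2 differences, and in those of the other genes below, was not tested. The gap between the spots also differed, with a median of 0.74 on the 51 OA microarrays and 0.14 on the 9 serum microarrays. On the image signal at constant diameter the spots thus give the same direction but not the same size. The authors' serum columns of the value table allow no test, and their microarrays and signal are not given. Against them the brighter spot was 0.42, 0.69 and 0.03 higher in OA at 1, 1.5 and 3 hours and 0.12 and 0.56 lower at 18 and 24 hours. The dimmer spot differed by 0.52, -1.09, -2.24, -0.79 and 2.3 from 1 to 24 hours, with the opposite sign to the brighter spot at 1.5, 3 and 24 hours.

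Among the serum mice the brighter spot averaged 9.84 at the early time points (n = 3), 9.13 at 3 hours (n = 2) and 9.50 at the late time points (n = 3). The value at 3 hours rests on mice at 8.63 and 9.63, of which the second lies just above the late serum mice. The serum mean of the same time was then subtracted, and that of 3 hours from the 4-hour mice, which had no serum microarrays of their own. With it subtracted, the early minus intermediate difference of the OA mice was 0.26 and the late minus intermediate difference 0.33 on the log2 scale. Without it they were 1.01 and 0.69. Whether serum mice follow the same time course cannot be read from 2 mice at 3 hours.

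The other genes of lipid droplets and lipolysis were followed on 14 clones of 13 genes, out of a list of 34, and 5 clones stood above the 95th percentile of the empty spots. Between the stages, limma's moderated F test called 2 of the 14 (Angptl4 and M6prbp1), against 6.14% of the 7623 other clones. Neither was called higher early than intermediate. The median early minus intermediate difference of the 14 clones was -0.06 and the median late minus intermediate difference -0.13, against 0.00 and 0.00 over all clones.

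Pnpla2, the lipase that G0s2 inhibits, had its highest mean at the intermediate stage, without passing the test. It lay between 7.45 and 9.48 in the early mice with a median of 8.62, between 8.535 and 9.84 in the intermediate mice with a median of 9.455, and between 8.81 and 9.015 in the late mice with a median of 8.935. The stages overlapped. In lot 2 the intermediate mice (9.455 to 9.8) lay above the early mice (7.45 to 8.735). In lot 1 the intermediate mice (9.65 to 9.84) lay above the late mice. In lot 3 the intermediate mice (8.535 to 8.99) lay within the range of the early mice (8.355 to 9.48). The higher intermediate level was thus not seen in lot 3. The share of all clones that separate in these ways within a lot was not counted. Over all lots the early minus intermediate difference was -0.63 (SE 0.20) on the log2 scale with a limma adjusted p of 0.0777. It passed with the fitted signal (adjusted p of 0.0485), with the unresolved microarray added (0.0495) and without mouse P4L3, P5L3 or P9L3 (0.037 to 0.0457), and it was -0.46 with the lot as a block (0.349). Over the 27 OA mice its level had a Pearson correlation of -0.46 with the brighter and -0.43 with the dimmer G0s2 spot. These correlations and those of the genes below take in the stage means by which G0s2 was chosen, and are given with no test. Against serum, Pnpla2 was lower in OA by a log2 difference of -0.97 (SE 0.19, limma adjusted p of 8.12e-05), the same direction as G0s2. Its mean of 8.97 lay under the 95th percentile of the empty spots.

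Angptl4, a secreted inhibitor of lipoprotein lipase and another PPAR target, had its highest level when G0s2 had its lowest. It lay between 8.515 and 9.66 in the early mice with a median of 8.93, between 9.38 and 10.49 in the intermediate mice with a median of 9.87, and between 8.125 and 9.08 in the late mice with a median of 8.75, so that intermediate and late mice did not overlap. The share of all clones whose intermediate mice all lie above the late mice was not counted. The early mean was below the intermediate mean by a log2 difference of -0.89 (SE 0.16, limma adjusted p of 0.00158) and the late mean by -1.21 (SE 0.19, limma adjusted p of 0.000233). Both calls were kept with the lot as a block and were lost with the signal at calculated diameter, where the differences were -0.88 and -1.13 (SE 0.25 and 0.30, limma adjusted p of 0.287 and 0.207). Early against intermediate, 1.13% of all clones were called higher and 1.48% lower, and late against intermediate 1.77% lower. The correlation of Angptl4 with the brighter G0s2 spot over the 27 OA mice was -0.71, stage means included. Against serum its difference was 0.04 (SE 0.15, limma adjusted p of 0.833).

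Gpihbp1, which anchors lipoprotein lipase to the capillary wall, had a correlation of -0.61 with the brighter G0s2 spot and stage means of 9.26, 9.62 and 9.39 (early, intermediate, late), which did not pass the test (limma adjusted p of 0.155 over the stages). In lot 2 the intermediate mice (9.705 to 9.97) lay above the early mice (8.735 to 9.35). In lot 3 the intermediate mice (9.175 to 9.77) lay within the range of the early mice (9.025 to 9.94). How many of all clones separate in lot 2 as Gpihbp1 does was not counted. Gpihbp1 was lower in OA than in serum by a log2 difference of -0.53 (limma adjusted p of 0.000908).

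Of the perilipins, M6prbp1 (the array's name for Plin3) was higher late than intermediate by 0.48 (SE 0.09, limma adjusted p of 0.00116, with 1.32% of all clones called higher late), with 8.41 intermediate and 8.89 late. The late mice were all of lot 1, and with the lot as a block the difference was 0.31 with a limma adjusted p of 0.296. The call was also lost with the fitted signal (0.46, limma adjusted p of 0.0754) and with the calculated diameter (0.58, limma adjusted p of 0.761). The M6prbp1 mean of 8.56 over the OA mice lay under the 95th percentile of the empty spots. Adfp (Plin2) had stage means of 10.22, 10.30 and 10.26, the flattest of the brightly measured members. Both were lower in OA than in serum, by log2 differences of -0.41 and -0.39 (limma adjusted p of 0.000101 and 0.000687).

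**Figure D5:**
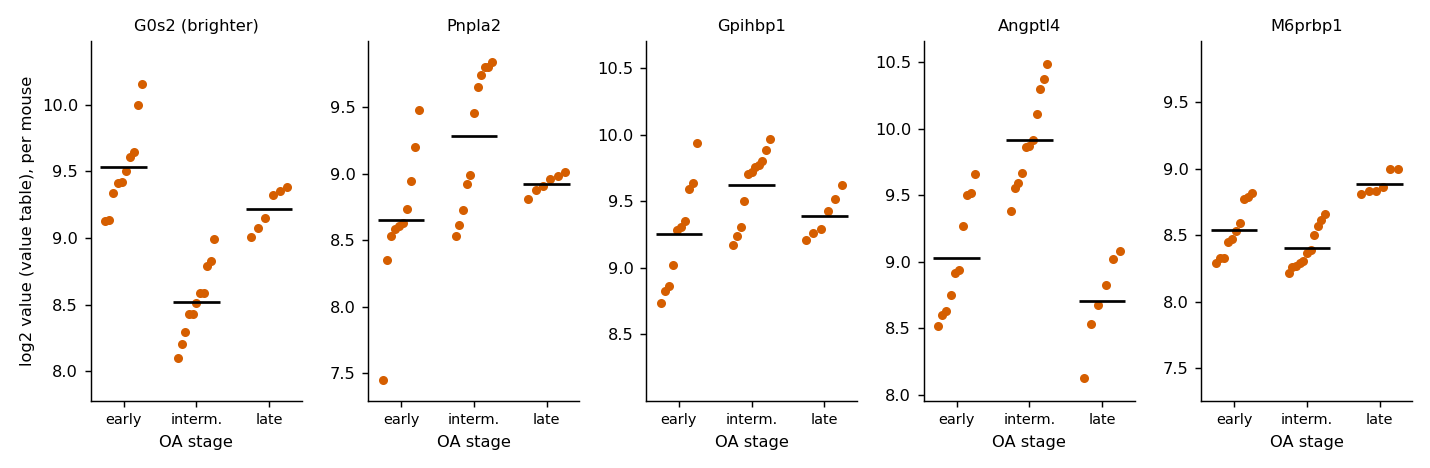
Log2 value of the brighter G0s2 spot and of Pnpla2, Gpihbp1, Angptl4 and M6prbp1 in each of the 27 OA mice by stage (value table), ordered by value within a stage, with stage means as black lines. The vertical axes span the same log2 range but are centred on each clone, and the intermediate mean is the lowest of the stages for G0s2 and M6prbp1 and the highest for Pnpla2, Gpihbp1 and Angptl4.

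OA against serum, limma called 6 of the 14 clones lower (Pnpla2, both Lipe clones, Adfp, M6prbp1 and Gpihbp1) and 3 higher (Ces3, Dgat1 and Acsl4), where 27.3% of all clones were called lower and 34.3% higher. The number called was 3 with the signal at calculated diameter and 5 with dim clones left out. The median difference of the 14 clones was -0.22, against 0.05 over all clones. Empty spots had a median of -0.28 and quartiles of -0.67 and 0.05 in this contrast. The part of this shift in the differences of these clones was not tested. Of the called clones, Pnpla2, both Lipe clones, M6prbp1 and Dgat1 had means under the 95th percentile of the empty spots. The Lipe clones, for hormone-sensitive lipase, differed by -0.45 and -0.32 (limma adjusted p of 0.000515 and 0.00301). Ces3, a carboxylesterase, differed by 0.42 and Acsl4, which activates fatty acids, by 1.24 (limma adjusted p of 0.000548 and 1.97e-08). Neither Ces3 (11.50, 11.76 and 11.39) nor Acsl4 (12.31, 12.50 and 12.24) passed the test between stages.

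The genes of PPAR signaling and fatty acid oxidation were measured on 24 clones of 19 genes. Limma called 4 of them between the stages, against 6.14% of the other clones, none of them in the early minus intermediate contrast. Against serum it called 8 lower and 9 higher in OA, beside 27.3% and 34.3% of all clones. Ppara, the receptor itself, had stage means of 11.28, 11.43 and 11.50 and did not pass the test between stages (limma adjusted p of 0.703). Acot2, a fatty acyl-CoA thioesterase, was called lower late than intermediate, with a log2 difference of -0.46 (limma adjusted p of 0.00116). One of the 2 Hadhsc clones, for an enzyme of fatty acid beta-oxidation, was called higher late than intermediate by 0.42 (limma adjusted p of 0.0125), with stage means of 9.81, 9.67 and 10.09, while the other clone differed by 0.01.

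Of the other genes named in the same lymphocyte screen, Fos, Rgs2 and Ccl3 were measured on 4 clones, and limma called none between the stages (6.14% of the other clones were called). Fos, an immediate early transcription factor, had stage means of 10.99, 10.69 and 10.40 with 1 early mouse at 14.08, and Rgs2, a regulator of G protein signaling, had 11.66, 11.78 and 11.38. Their levels had correlations of 0.18 and 0.14 with the brighter G0s2 spot over the 27 OA mice. In OA against serum, Fos (1.56), Rgs2 (0.43) and 1 of the 2 Ccl3 clones (0.87) were higher, opposite in direction to G0s2. Their limma adjusted p were 0.000158, 0.0343 and 1.37e-09. The other Ccl3 clone differed by 0.004 (limma adjusted p of 0.97). Both Ccl3 clones were dim, with means of 6.86 (called) and 7.43 (not called) over the OA mice. Empty spots also reach such levels, with a median of 6.37 and a 95th percentile of 9.11 for their means. Of all clones 34.3% were called higher.

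Markers of other cells that a whole lung can hold were read beside G0s2. None of the 7 adipocyte clones stood above the 95th percentile of the empty spots, and their mean log2 level lay between 7.14 and 7.77 in the early, 7.28 and 7.59 in the intermediate and 7.26 and 7.49 in the late mice. The mean of the 8 neutrophil clones lay between 8.37 and 9.88 early, 8.76 and 9.46 intermediate and 8.49 and 9.01 late, and limma called 1 of them between the stages, S100a8, with stage means of 12.00, 11.92 and 10.49. The mean of the 10 macrophage clones lay between 8.01 and 8.37 early, 7.85 and 8.32 intermediate and 7.99 and 8.14 late, with none called. Limma called 1 of the 4 alveolar type II clones and none of the 15 red cell clones. These counts stand beside 6.14% of the other clones called between the stages. The part of any of these cells in the G0s2 level was not tested.

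The clones most like G0s2 were sought by the Pearson correlation with the brighter spot over the 27 OA mice, among 2477 clones above the 95th percentile of the empty spots, whose correlations had a median of 0.02 and a 95th percentile of 0.49. The 5 most alike were Lbh, a transcription cofactor (0.77), Elovl1, an elongase of very long chain fatty acids (0.76), Ifi204, an interferon-inducible DNA sensor (0.76), Fasl, the death receptor ligand (0.74), and Mrpl36, a mitochondrial ribosomal protein (0.74). Like G0s2 they were lowest at the intermediate stage, with Elovl1 at 11.21, 10.73 and 11.38 and Fasl at 10.73, 10.19 and 10.49. After subtraction of the mean of each time point their correlations were between 0.31 and 0.53.

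The 3 most opposed were Plaa, an activator of phospholipase A2 (-0.83), Gm1967 (-0.74) and Map2k3, a kinase of the p38 pathway (-0.74). Plaa lay between 8.52 and 10.095 in the early, 9.89 and 11.08 in the intermediate and 9.18 and 9.915 in the late mice, with stage means of 9.42, 10.46 and 9.56. Its correlation with G0s2 within time points was -0.59. All these correlations share the microarrays and the stage means by which G0s2 was chosen, and they are given with no test.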

How the data were processed

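Lung RNA of 35 mice was measured on 60 microarrays. For each, the authors deposited linear intensity values for 9984 spots, read with Bzscan2, and a quality mark that was not used. The authors also deposited a log2 table, quantile-normalized by them, with 51 OA columns and 5 serum columns. Its scale was taken from its match to the image signal, and the microarrays behind each serum column are unknown. Per the methods the signal was corrected for local background, and whether the deposited intensities include this step is unknown.

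The OA columns were averaged per mouse without serum subtraction, which the study's methods apply. For OA against serum, the image signal at constant diameter was floored at 1, log2-transformed and quantile-normalized over 60 microarrays in R 4.3.3 with limma 3.58.1, and compared by contrasts of 1 fit with a group for each treatment and time point (lmFit and eBayes, Benjamini-Hochberg at 5% over 7625 clones). In this fit the spread of the single serum mice at 1.5 and 24 hours is assumed to equal that of the other groups. The 200 control, 512 empty and 1647 unnamed spots entered the normalization and not the tests. Symbols come from the spot list. Descriptions used Python 3.11.15 with pandas 2.3.3 and scipy 1.17.1, and the fits were tested on simulated data.

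One OA microarray at 1.5 hours, of a mouse that its label leaves unresolved, was left out, and a microarray of mouse P7L3 whose labels name both 1.5 and 3 hours was taken as 3 hours. The number of microarrays limits the precision. The named genes are G0s2, lipid droplet and lymphocyte screen genes that are above the empty spots or called, the 5 clones most like and 3 most opposed to G0s2, and up to 4 members of each other list. The gene, the lists and the tests were chosen with earlier results of these data known. Alternatives were other signals, median centring, serum subtraction or the serum columns, the lot as a block, dim clones left out, the doubtful microarrays added or left out, and each mouse left out in turn, other than the single serum mice at 1.5 and 24 hours, without which these time points have no control.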

Additional observations from a re-analysis of the deposited data

How the results depend on the processing

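The early minus intermediate and late minus intermediate differences of both G0s2 spots kept their sign under every alternative run, including each mouse left out. For the brighter spot they were 0.73 and 0.41 with the fitted signal and 0.26 and 0.33 with the serum mean subtracted (that of 3 hours for the 4-hour mice), and between 0.94 and 1.06 and between 0.65 and 0.74 with 1 mouse left out. The late minus intermediate difference of the dimmer spot was 0.10 with the signal at calculated diameter.

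The OA minus serum difference of the brighter spot over 5 time points was -0.61 with the signal at calculated diameter and lost its call (limma adjusted p of 0.0607), and lay between -0.55 and -0.35 with 1 mouse left out. At 3 hours it was -0.29 with the fitted signal and -1.09 with the calculated diameter, without a call in either (limma adjusted p of 0.427 and 0.147). Against the authors' serum columns it was 0.0917 over 5 time points, and 0.42, 0.69, 0.03, -0.12 and -0.56 from 1 to 24 hours. For the dimmer spot those columns gave -0.26 over 5 time points and 0.52, -1.09, -2.24, -0.79 and 2.3 from 1 to 24 hours, and the calculated diameter gave 0.69 at 24 hours. The dimmer spot lost its calls over 5 time points and at 1, 3 and 18 hours with the calculated diameter and its call at 1 hour with the fitted signal, which added a call at 24 hours. The cause was not tested. With 1 mouse left out the differences of the brighter spot lay between -0.54 and -0.19 (1 hour), -0.59 and -0.41 (1.5 hours), -1.22 and -0.23 (3 hours), -0.52 and -0.35 (18 hours), and -0.32 and -0.20 (24 hours). The single serum mice at 1.5 and 24 hours could not be left out, so these ranges do not cover them.

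No difference within stages was called under any alternative, and several changed sign. At the brighter spot they were 0.0894 (1.5 minus 1 hour) and -0.10 (4 minus 3 hours) with the fitted signal, 0.0733 (24 minus 18 hours) with the calculated diameter and 0.20 (24 minus 18 hours) with serum subtracted. With 1 mouse left out they lay between -0.24 and 0.10, 0.02 and 0.17, and -0.18 and 0.0033. At the dimmer spot they were -0.11 (4 minus 3 hours) with the fitted signal, -0.37 (24 minus 18 hours) with the calculated diameter and 0.32 (1.5 minus 1 hour) with serum subtracted, and 1.5 minus 1 hour lay between -0.20 and 0.13 with 1 mouse left out. Of the lipid droplet clones, the number called between stages was 0 with the calculated diameter, 6 with serum subtracted, 1 with the lot as a block and 1 with dim clones left out, and 2 to 3 with 1 mouse left out. With serum subtracted, the spread of the serum mice does not enter the fit, so that count is not comparable with the others. The share of all clones called under these settings was not counted. The number called OA against serum was 3 with the calculated diameter, 5 with dim clones left out, and 9 to 10 with 1 mouse left out. Leaving out dim clones removed both G0s2 spots from the comparisons of OA mice and the dimmer spot from OA against serum. Signal close to the empty spots limits both.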
